A study of Mus musculus with 47 samples.

Results

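The livers of mice that wore an organic sunscreen during ultraviolet radiation (UVR) were compared with the livers of mice that wore the same sunscreen without UVR. The comparison used the 12 arrays whose labels name the organic sunscreen, 6 from Organic + UVR and 6 from Organic-UVR, out of 47 arrays in the series, with 1 array per mouse. All mice were female hairless mice of the SKH:QS strain, which are immune-competent and albino, and were 8 weeks old at the start. Organic + UVR mice received the organic sunscreen and then 29 kJ/m2 UVR at each of 30 weekly treatments over 36 weeks. Organic-UVR mice received the same sunscreen, collar and washing on the same schedule and no UVR. Livers were taken about 24 h after the last treatment, and the study does not give the hour of day. The product held octylmethoxycinnamate, butyl methoxydibenzoylmethane, 4-methylbenzylidene camphor and octocrylene as its filters and no nanoparticles. The study describes 1 cage per treatment group whereas the labels describe individual housing, and in the first case cage and UVR cannot be told apart. Control + UVR and Control-UVR mice (no sunscreen), ZnO + UVR and ZnO-UVR mice, and TiO2 + UVR and TiO2-UVR mice served for the comparison of UVR effects between products, with 6 arrays per group except 5 in ZnO + UVR. The TiO2 product also contains the first pair of organic filters named above.

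UVR is absorbed in the skin and does not reach the liver, so any effect on an inner organ is indirect. Organic filters can pass the skin, and the liver disposes of them through oxidation by phase I enzymes followed by conjugation. The liver also runs a molecular clock in which the activators Clock, Bmal1 and Npas2 drive the repressors Per, Cry, Rev-erb and Ciart, and this clock sets daily rhythms in amino acid, sterol and glucose metabolism. The samples carried hepatocyte transcripts at high levels. Cps1, the first enzyme of the urea cycle, averaged 12.67 ± 0.13 in Organic + UVR and 12.63 ± 0.13 in Organic-UVR (log2 level, SD, n = 6 each). Apoh, a plasma protein made by hepatocytes, averaged 12.43 ± 0.29 in Organic + UVR and 12.26 ± 0.41 in Organic-UVR on the same scale. The 211 measured olfactory receptor genes, which liver is not expected to use, had a median log2 level of 3.62 over these 12 arrays, and 90% of them lay under 5.03.

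One array stood apart from the others. Each array was regressed on the average of the 47 arrays, and the slope was 0.77 in Organic-UVR replicate 1 and between 0.99 and 1.04 in the other Organic-UVR arrays. In Organic + UVR it lay between 0.90 and 1.03. A slope under 1 means that bright transcripts read low and dim transcripts read high on that array. The mean slope of Organic + UVR minus that of Organic-UVR was 0.0054, which did not pass an exact two-sided permutation test (p = 0.92). Without replicate 1 the difference was -0.035 (exact two-sided permutation test, p = 0.23), and values without that array are given beside the results where they differed by more than 1.5 times or in sign.

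**Figure D1:**
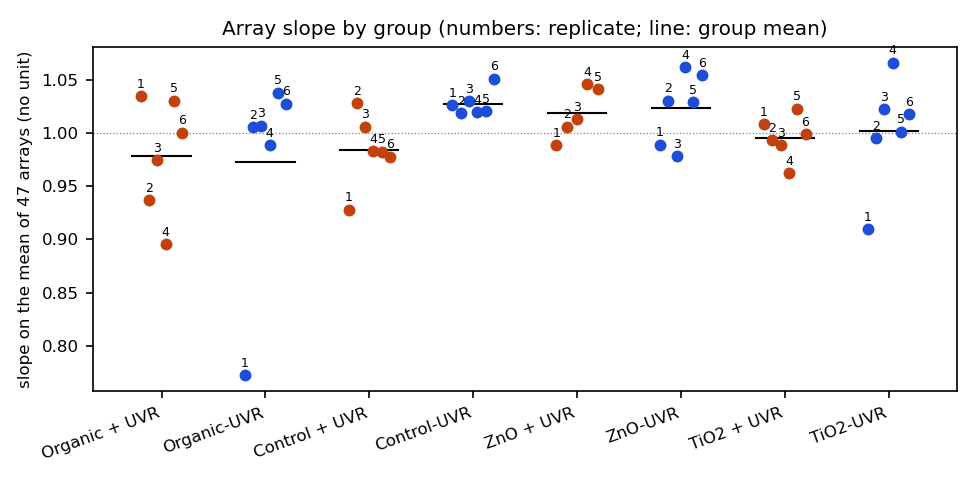
Array slope (no unit) of every array in the 8 groups, with points numbered by replicate, orange for groups with UVR and blue for groups without UVR, and a line at each group mean. Organic-UVR replicate 1, at 0.77, lies under every other array, the lowest Organic + UVR array being at 0.90.

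No transcript passed the test for a difference between Organic + UVR and Organic-UVR, among values that came mostly from chromosomes 1 and 10 to 16. Of 9815 transcripts tested with limma, 0 passed at a Benjamini-Hochberg adjusted p under 0.1 (0% called), the false discovery rate used in the study, and the smallest adjusted p was 0.43. An unadjusted p under 0.05 was reached by 333 transcripts (3.39%), 125 higher (1.27%) and 208 lower (2.12%) in Organic + UVR. Without Organic-UVR replicate 1, 0 passed again, with a smallest adjusted p of 0.20, and 693 transcripts (7.06%) had an unadjusted p under 0.05. With array weights, which count noisy arrays less, 5 transcripts passed. Among them Spef2 (0.49) had a positive difference, and Ndel1 (-0.58) and Ccdc152 (-1.13) had negative ones on the log2 scale.

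In the main fit, with every array kept, the differences were small as well as uncalled. The most positive difference was 0.69 and the most negative was -0.76 on the log2 scale, and 0 of 9815 transcripts differed by more than 1. That count did not hold in other fits. Without Organic-UVR replicate 1, the clock gene Ciart differed by -1.10. With array weights, Ccdc152 differed by -1.13 and a transcript without a gene symbol by 1.14. In the main fit, 99.2% of transcripts had a 95% interval of the difference wholly between -1 and 1. For 77.4% it lay between -0.5 and 0.5. The median transcript had an interval of its difference ± 0.29. Spread within a group was of the same order, with a median SD over transcripts of 0.27 in Organic + UVR and 0.32 in Organic-UVR, or 0.20 in Organic-UVR without replicate 1. Across transcripts the difference had a correlation of 0.07 with the mean level, and of -0.33 without replicate 1, so leaving out that array tilted all differences along the range of brightness.

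**Figure D2:**
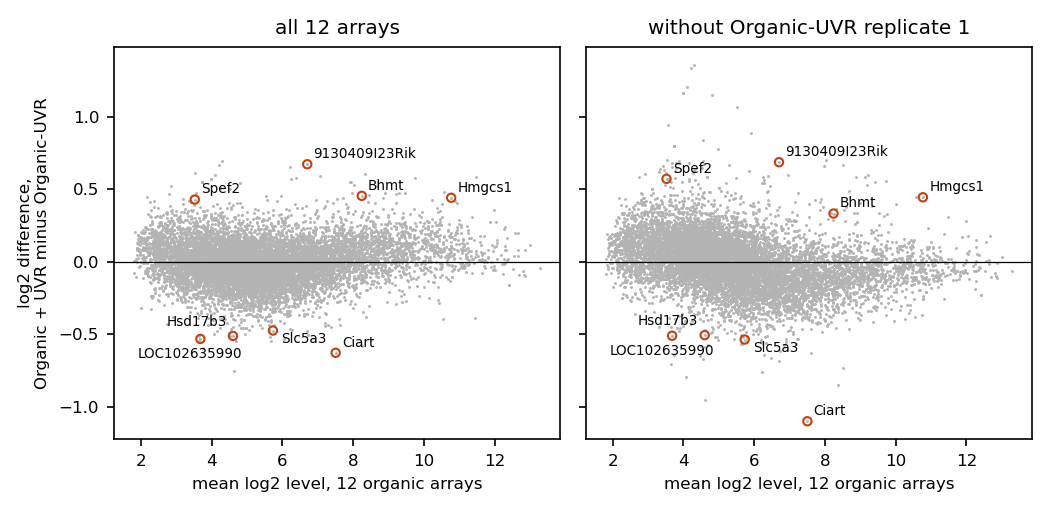
Log2 difference (Organic + UVR minus Organic-UVR, vertical axis) against the mean log2 level over the organic arrays (horizontal axis) for 9815 transcripts, with all 12 arrays on the left and without Organic-UVR replicate 1 on the right; circles mark named genes. The cloud is level on the left and slopes downward to the right without replicate 1 (correlations of 0.07 and -0.33).

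Among the transcripts with negative differences, LOC102635990, an uncharacterised gene on chromosome 10, had the smallest p. Its log2 level ran over 3.23, 3.39 and 3.63 (lowest, median, highest array) in Organic + UVR and 3.66, 3.95 and 4.17 in Organic-UVR. The groups did not overlap, and the difference was -0.53 ± 0.12 (SE, limma adjusted p = 0.43). Its whole range lay in that of the olfactory receptor genes, and the other probeset of this gene differed by 0.16.

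Slc5a3, the transporter that brings myo-inositol into cells, came next. Its log2 level ran over 5.06, 5.55 and 5.92 in Organic + UVR and 5.62, 5.91 and 6.26 in Organic-UVR. The groups overlapped, and the difference was -0.47 ± 0.12 (SE), or -0.54 without replicate 1. Slc11a2, which carries iron into cells, had log2 levels of 5.38, 5.85 and 6.26 in Organic + UVR and 6.19, 6.25 and 6.43 in Organic-UVR. All Organic-UVR arrays were close together while those with UVR reached lower, and the difference was -0.42 ± 0.14 (SE), or -0.41 without replicate 1.

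Hsd17b3, the enzyme that reduces androstenedione to testosterone, was at 4.04, 4.40 and 4.61 in Organic + UVR and 4.69, 4.80 and 5.26 in Organic-UVR. Its groups did not overlap, and the difference was -0.51 ± 0.17 (SE), or -0.51 without replicate 1. LOC102635990 and Hsd17b3 were the 2 transcripts of 9815 whose 6 arrays with UVR all lay under the 6 without (0.0204%). Both averaged under 5.03, the level that 90% of olfactory receptor genes do not reach. Other negative differences of small p belonged to Frmd6, a membrane protein upstream of the Hippo pathway (-0.52), Prss57, a serine protease of neutrophil granules (-0.47), Calhm6, of a family of membrane channels (-0.46), Gpr18, a receptor of lymphocytes (-0.42), Grap, an adaptor of lymphocyte receptor signalling (-0.41), 2810039B14Rik (-0.40), and the neuronal membrane proteins Omg (-0.39) and Slitrk5 (-0.33). Their adjusted p-values were all above 0.1.

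Among the transcripts with positive differences, Bhmt, which remethylates homocysteine with betaine, was the brightest of the leading pair. Its log2 level ran over 8.29, 8.39 and 8.74 in Organic + UVR and 7.45, 8.11 and 8.30 in Organic-UVR. The lowest array was Organic-UVR replicate 1, and only the highest array without UVR reached into the range with UVR. The difference was 0.46 ± 0.14 (SE), or 0.33 without replicate 1, and it did not pass. Amdhd1, an enzyme of histidine breakdown, was at 8.43, 9.19 and 9.41 in Organic + UVR and 7.84, 8.79 and 8.97 in Organic-UVR, a difference of 0.44 ± 0.17 (SE), or 0.34 without replicate 1. 9130409I23Rik, an uncharacterised gene on chromosome 1, was at 6.42, 7.08 and 7.38 in Organic + UVR and 5.39, 6.34 and 7.09 in Organic-UVR. The difference of 0.67 ± 0.21 (SE) was the largest among the named positive ones, and replicate 4 of Organic-UVR was the lowest array.

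Spef2, a gene of sperm flagella and cilia on chromosome 15, had the smallest p on this side. One of its probesets was at 3.33, 3.64 and 4.39 in Organic + UVR and 3.02, 3.24 and 3.92 in Organic-UVR, with replicate 1 the highest without UVR. The difference was 0.43 ± 0.13 (SE, limma adjusted p = 0.998), or 0.57 without replicate 1 (adjusted p = 0.20). The other 21 probesets of Spef2 differed by between -0.18 and 0.18, with 8 above 0 and 13 below 0. Zmat5, a component of the minor spliceosome, was the 1 transcript of 9815 whose arrays with UVR all lay over those without (0.0102%). Its log2 level was 5.57, 5.65 and 5.74 in Organic + UVR and 5.26, 5.47 and 5.51 in Organic-UVR, a difference of 0.24 ± 0.11 (SE). Without replicate 1, the arrays did not overlap in 19 transcripts that were higher (0.194%) and 18 that were lower (0.183%) in Organic + UVR.

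The remaining positive differences of small p were Ostn, a secreted peptide of muscle and bone (0.40), Caps2, a calcium-binding protein (0.36), Parpbp, a partner of Parp1 (0.35), Aoc3, an amine oxidase of vessels (0.34), Cbx2, a Polycomb subunit (0.32), and Itgae, an integrin of tissue lymphocytes (0.32). For Ostn and Caps2 a single array, Organic + UVR replicate 4, lay far over the rest. Of the 10 named for positive differences 6 averaged under 5.03, as did 5 of the 10 named for negative differences.

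**Figure D3:**
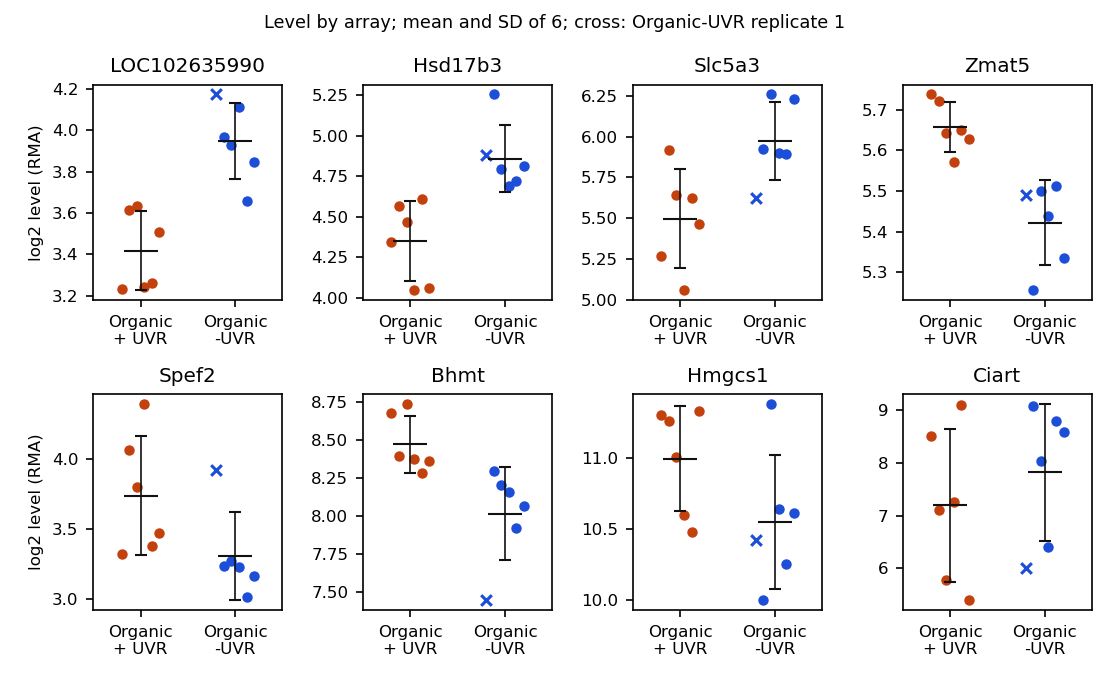
Log2 level (RMA, vertical axis) of 8 genes in each array of Organic + UVR (orange, left) and Organic-UVR (blue, right), with the mean and SD of 6 arrays; a cross marks Organic-UVR replicate 1 and Spef2 is shown by its named probeset. LOC102635990, Hsd17b3 and Zmat5 do not overlap between groups, and Ciart spans 5.40 to 9.11 within Organic + UVR alone.

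Gene lists drawn up for the functions of liver and for UVR were described by their members, and none of them held a called transcript in this comparison, as none was called at all. Over all transcripts the median difference was 0.00, with 49.3% above 0, and the lists are to be read against this. Without replicate 1 the median was -0.01, with 48.3% above 0. Differences then fell with the mean level (correlation of -0.33), so lists of bright genes lean under 0 in that fit. Many list members were not measured. The values covered 5 of 29 genes of the NF-kB list, 7 of 33 of the interferon list and 11 of 25 of the p53 list. The olfactory receptor list, which is dim, had a median of -0.03, or 0.10 without replicate 1.

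Among lists with 5 or more measured genes, sterol synthesis had the highest median. Of 10 measured genes 9 were above 0, the median was 0.29, and 2 had an unadjusted p under 0.05, both higher (1.27% of all transcripts). Hmgcs1, which makes the precursor of mevalonate, ran over 10.48, 11.13 and 11.32 in Organic + UVR and 10.00, 10.52 and 11.38 in Organic-UVR. The groups overlapped, and the difference was 0.44 ± 0.17 (SE), or 0.45 without replicate 1. Idi1, which isomerises the isoprenoid unit, was at 9.73, 10.12 and 10.33 in Organic + UVR and 8.03, 9.63 and 10.20 in Organic-UVR. Its lowest array was replicate 1, and the difference of 0.58 ± 0.24 (SE) became 0.33 without it. Hsd17b7, a later enzyme of the pathway, differed by 0.32, or 0.14 without replicate 1, and the median of the list became 0.08.

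Urea cycle and amino acid breakdown genes followed the same way, with 14 of 17 above 0 and a median of 0.11, or 5 of 17 above 0 and a median of -0.04 without replicate 1. Bhmt (0.46) and Hal, the first enzyme of histidine breakdown (0.32), were the 2 members at an unadjusted p under 0.05, both higher (1.27% of all transcripts). Without replicate 1 only Bhmt remained, beside 3.23% of all transcripts. Hal was at 9.61, 10.06 and 10.32 in Organic + UVR and 9.23, 9.69 and 10.21 in Organic-UVR. Xenobiotic sensors and phase I enzymes, which act on foreign compounds such as organic filters, had 11 of 12 members above 0 and a median of 0.13, with differences between -0.02 and 0.28 and 0 members at an unadjusted p under 0.05. Without replicate 1 they split evenly, with 6 of 12 above 0 and a median of 0.00. Conjugation and antioxidant genes had 7 of 10 above 0 and a median of 0.19, or 0.04 without replicate 1.

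PPAR alpha and fatty acid oxidation genes had 12 of 14 above 0 and a median of 0.11, or 7 of 14 and 0.00 without replicate 1. Their smallest p belonged to Eci3, an isomerase of fatty acid oxidation, at 6.21, 6.71 and 7.19 in Organic + UVR and 4.58, 6.28 and 6.94 in Organic-UVR. Replicate 1 was the lowest array, and the difference of 0.58 ± 0.27 (SE) became 0.40 without it. Abcd2 (0.34), a peroxisomal transporter, and Acot4 (0.25), a thioesterase, came next. Both were lowest in replicate 1, without which Abcd2 differed by 0.17 and Acot4 by 0.05. In the growth hormone axis 7 of 10 were above 0 with a median of 0.15, or 6 of 10 and 0.03 without replicate 1, led by the receptor Ghr (0.26, or 0.14 without replicate 1), Socs2, a feedback inhibitor (0.55), and Igfbp1, a binding protein raised in fasting (0.41, or 0.16 without it). A second, dimmer probeset of Socs2 differed by 0.22. Liver-secreted plasma proteins had 14 of 15 above 0 and a median of 0.08, or -0.01 without replicate 1. Of these Serpina1c, an antiprotease, differed by 0.58, or 0.31 without replicate 1, Apoh by 0.17 (0.05 without it) and F13b by 0.14 (0.02 without it).

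Ubiquitin and proteasome genes had 23 of 28 members above 0 (median 0.09), or 7 of 28 (median -0.07) without replicate 1. Ribosomal proteins had 29 of 41 above 0, or 10 of 41 without it. The respiratory chain and import genes had 36 of 45 above 0, or 18 of 45 without it, and translation initiation genes 11 of 13, or 1 of 13 without it. None of these 4 lists held a member at an unadjusted p under 0.05. The direction in which most of their members lay therefore turned on 1 array.

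The lists for damage and stress lay near 0 or under it. The p53 list had 4 of 11 members above 0 and a median of -0.01, or -0.12 without replicate 1. Its member Rrm2b, a ribonucleotide reductase subunit induced by p53, was at 5.97, 6.60 and 6.65 in Organic + UVR and 6.61, 6.70 and 7.06 in Organic-UVR, a difference of -0.33 ± 0.15 (SE). Polk, a polymerase that passes lesions, differed by -0.17, and Perp, a membrane protein induced by p53, by 0.15, or 0.03 without replicate 1. Nucleotide excision repair, the pathway that removes UVR lesions, had a median of -0.02 over 6 genes with differences between -0.07 and 0.24, and of -0.06 without replicate 1. Break rejoining (0.00 over 9 genes), BRCA1 and Fanconi repair (0.05 over 7) and cell division (0.03 over 15) had 1 member at an unadjusted p under 0.05 between them, Birc5, an inhibitor of apoptosis needed in mitosis (0.33). Top2a, a topoisomerase of dividing cells, differed by 0.28 and the kinase Cdk2 by -0.12. A second, dimmer probeset of Top2a differed by 0.02, or -0.01 without replicate 1. Without replicate 1 the medians were -0.09 for break rejoining, with 9 of 9 genes under 0, 0.03 for BRCA1 and Fanconi repair and -0.02 for cell division. These medians carry the tilt with brightness that leaving out replicate 1 brings.

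ER stress and heat shock genes had 6 of 18 above 0 and a median of -0.05, or 1 of 18 and -0.22 without replicate 1. Ahsa1, which activates the chaperone Hsp90, was at 7.44, 7.85 and 8.11 in Organic + UVR and 7.78, 8.27 and 8.31 in Organic-UVR. Only the lowest arrays without UVR reached into the range with UVR, and the difference was -0.32 ± 0.12 (SE), or -0.40 without replicate 1. Ddit3 (-0.28, or -0.18 without replicate 1), a stress-induced transcription factor, and Hspb1 (-0.25), a small heat shock protein, lay on the same side. Without replicate 1, 4 members had an unadjusted p under 0.05, all lower (3.83% of all transcripts). Interferon response genes had a median of -0.05 over 7 genes, NF-kB genes -0.05 over 5, acute phase proteins -0.01 over 7 and immediate early genes -0.05 over 9, with 0 members at an unadjusted p under 0.05 in any of the 4 lists. Without replicate 1 the medians were -0.14 for interferon response, -0.02 for NF-kB, -0.19 for acute phase proteins, with 6 of 7 under 0, and -0.06 for immediate early genes.

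Heme and iron genes had 5 of 7 above 0 (median 0.12, or -0.03 without replicate 1), with Slc11a2 on the other side as given above, Tfrc, the transferrin receptor, at -0.28 (-0.53 without replicate 1) and Ppox, an enzyme of heme synthesis, at 0.29. Tubulin and stathmin genes had 8 of 9 under 0 and a median of -0.12, or -0.06 without replicate 1. Tubg1, the gamma tubulin that nucleates microtubules, was at 5.78, 7.15 and 7.84 in Organic + UVR and 6.97, 7.31 and 8.02 in Organic-UVR, a difference of -0.44 ± 0.20 (SE). Tubb2b differed by -0.37, but its replicate 1 without UVR was at 5.99 while the other 5 arrays lay between 4.17 and 4.32, and without that array the difference was -0.10. Stmn4 differed by -0.20, or -0.06 without it.

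Clock genes of the repressing and output arm had 8 of 10 members under 0 and a median of -0.11, or 9 of 10 and -0.22 without replicate 1. Per2, a clock repressor, was at 5.38, 5.80 and 6.16 in Organic + UVR and 5.65, 6.24 and 6.49 in Organic-UVR, a difference of -0.35 ± 0.17 (SE), or -0.47 without replicate 1. Per1, its paralog, was at 5.54, 5.80 and 6.30 in Organic + UVR and 5.67, 6.24 and 6.91 in Organic-UVR, a difference of -0.36 ± 0.19 (SE), or -0.48 without replicate 1. Ciart, which represses Clock and Bmal1, was at 5.40, 7.18 and 9.11 in Organic + UVR and 6.02, 8.31 and 9.07 in Organic-UVR. Both groups spanned more than 3 log2 units and overlapped. The difference was -0.63 ± 0.54 (SE), or -1.10 ± 0.53 without replicate 1, the lowest Organic-UVR array, and neither was called. Npas2, an activator, averaged 4.16 ± 0.36 in Organic + UVR and 4.14 ± 0.30 in Organic-UVR (SD, n = 6 each), a difference of 0.02, or 0.22 without replicate 1. Both averages lay under 5.03, the level that 90% of olfactory receptor genes do not reach.

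Markers of other liver cells held no called gene. The 4 measured Kupffer cell and macrophage markers were all under 0 with a median of -0.20, or -0.32 without replicate 1, and the mean level of that list ran between 6.31 and 7.01 in Organic + UVR and between 6.19 and 7.35 in Organic-UVR. The 3 sinusoidal endothelium markers were also all under 0 with a median of -0.20, or -0.28 and 1 member at an unadjusted p under 0.05 without replicate 1, at 5.56 to 6.27 in Organic + UVR and 5.76 to 6.36 in Organic-UVR. The groups overlapped for both lists, and in whole tissue fewer cells of a type and less RNA per cell cannot be told apart. B cell (3 genes, median -0.08), T and NK cell (3, 0.03), neutrophil (4, 0.06), stellate cell (4, 0.03) and erythroid (1, -0.06) markers had 0 members at an unadjusted p under 0.05. Without replicate 1 their medians were 0.09, 0.06, 0.10, -0.03 and 0.00 in the same order. The hepatocyte markers Cps1 and Serpina1c had a median of 0.31, or 0.15 without replicate 1. The B cell list spanned 4.66 to 5.03 in Organic + UVR and 4.67 to 5.75 in Organic-UVR, or 4.67 to 4.88 without replicate 1. Of 3 cholangiocyte markers, Krt19 differed by -0.24, Krt7 by -0.19 (-0.12 without replicate 1) and Sox9 by 0.04 (0.10 without it).

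**Figure D4:**
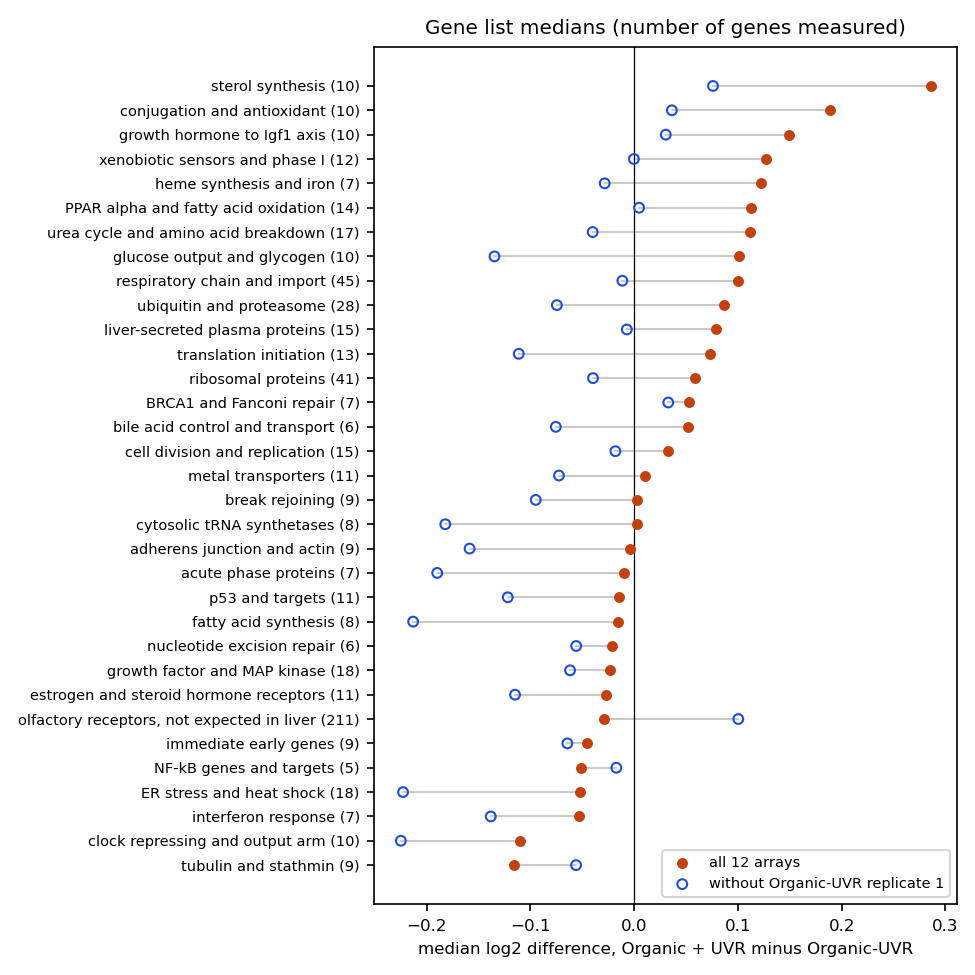
Median log2 difference (Organic + UVR minus Organic-UVR) of each gene list with 5 or more measured genes, with all 12 arrays (filled) and without Organic-UVR replicate 1 (open); numbers of genes are in parentheses. Leaving out 1 array moves sterol synthesis to 0.08, against 0.29 with all arrays, and ubiquitin and proteasome to -0.07, against 0.09.

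The UVR difference under organic sunscreen was next set against the UVR difference without sunscreen. The difference of the differences was called for 0 of 9815 transcripts (0%), with 729 at an unadjusted p under 0.05 (7.43%), 3.93% of transcripts higher and 3.49% lower. The smallest p belonged to Abcd2, a peroxisomal transporter of very long-chain fatty acids, whose UVR difference was 0.34 under organic sunscreen (0.17 without Organic-UVR replicate 1) and -0.85 without sunscreen. The excess of 1.19 ± 0.26 (SE) had a limma adjusted p of 0.48. Scrib, a cell polarity protein, followed with -0.33 under organic sunscreen and 0.25 without it, a difference of -0.58 ± 0.15 (SE, limma adjusted p = 0.60). With the array slope as a covariate 1 transcript passed, the Spef2 probeset (0.74, adjusted p = 0.03). Across transcripts the 2 UVR differences had a correlation of 0.08, or 0.46 without Organic-UVR replicate 1. These comparisons share no arrays. The mean level had a correlation of -0.40 with the difference without sunscreen, and of -0.33 with the organic difference without replicate 1. With the slope as a covariate the 2 UVR differences had a correlation of 0.09 over all arrays, beside 0.08 without the covariate. The covariate was not fitted without replicate 1, so the cause of the 0.46 was not tested.

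Against the ZnO product, 0 transcripts were called (0%), with 203 at an unadjusted p under 0.05 (2.07%), 0.958% of transcripts higher and 1.11% lower. Dhx58, an RNA helicase of the antiviral response, differed with UVR by -0.22 under organic and 0.69 under ZnO sunscreen, a difference of -0.91 ± 0.25 (SE, limma adjusted p = 1.00). LOC102635990 was second, with -0.53 under organic and 0.05 under ZnO sunscreen. The correlation across transcripts was 0.11, or 0.14 without Organic-UVR replicate 1.

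Against the TiO2 product the UVR difference did differ. Of 9815 transcripts 32 were called (0.326%), 20 with a higher value under organic sunscreen (0.204%) and 12 with a lower one (0.122%), and 29 of them had 1 gene symbol. An unadjusted p under 0.05 was reached by 5.48%, with 2.35% higher and 3.13% lower. All 32 were called again without Organic-UVR replicate 1, when 65 passed in all, 22 higher and 43 lower. Without the replicate number as a block 13 passed, 8 higher and 5 lower, and leaving out any other single array gave between 13 (without Organic + UVR replicate 6) and 40. The gene was called in all 24 fits that left out 1 array for 12 of the 29, and in 5 fits for Per2, 6 for Lgalsl and 7 for Npas2. In 26 of the 29 named genes the UVR difference had opposite signs under the 2 products, and in 28 the TiO2 difference was the larger in size. Choosing genes by a large gap favours opposite signs, so the count of 26 does not show an opposite response. Under organic sunscreen alone, 7 of the 29 had an unadjusted p under 0.05 (3.39% of all transcripts), a count that this choice also favours. Only Slc5a3 had a larger difference under organic sunscreen. The levels of Organic + UVR and Organic-UVR overlapped in all 29. A gap does not tell which group departs in level. Ddc, for example, averaged 7.76 in Organic + UVR, 7.32 in Organic-UVR and 7.27 in TiO2 + UVR. It averaged 8.86 in TiO2-UVR and 8.19 to 8.71 in the no-sunscreen and ZnO groups. Nr1d2 averaged 9.02, 8.98, 9.29 and 7.57 in the same order, and 7.64 to 8.56 in the no-sunscreen and ZnO groups. Differences between these levels were not tested.

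The gap furthest from 0 was at a clock gene. Ciart differed with UVR by -0.63 under organic and by 2.86 under TiO2 sunscreen, a gap of -3.49 ± 0.76 (SE, limma adjusted p = 0.035). The TiO2 + UVR arrays were at 7.34, 8.26 and 9.13 and the TiO2-UVR arrays at 4.60, 5.33 and 5.97, all under 10 of the 12 organic arrays. Per1 differed by -0.36 under organic and 0.93 under TiO2 sunscreen (gap -1.29 ± 0.27, SE, adjusted p = 0.031). Per2 differed by -0.35 and 0.58 in the same order (gap -0.93 ± 0.24, adjusted p = 0.098). Nr1d2, the repressor also called Rev-erb beta, differed by 0.04 under organic sunscreen, at 8.71, 8.94 and 9.36 in Organic + UVR and 8.17, 9.08 and 9.38 in Organic-UVR, and by 1.72 under TiO2 sunscreen (gap -1.68 ± 0.38, SE, adjusted p = 0.046). The activator Npas2 went the other way, with 0.02 under organic and -2.12 under TiO2 sunscreen (gap 2.15 ± 0.54, SE, adjusted p = 0.090). Its TiO2-UVR arrays were at 4.63, 6.30 and 7.30, whereas all 12 organic arrays lay between 3.79 and 4.82. These organic values are under 5.03, the level that 90% of olfactory receptor genes do not reach. At that level a small organic difference does not show a lack of response. In the repressing and output list 4 of 10 genes were called, all lower, beside 0.122% of all transcripts. Without Organic-UVR replicate 1 the organic difference was -1.10 for Ciart and -0.15 for Nr1d2, whose sign changed. As the hour of day of collection is not given for the groups, it cannot be told apart from treatment for these clock genes.

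The promoters of 3 of these clock genes are shown because E-boxes, the letters CACGTG, are the element through which Clock and Bmal1 act on the repressors. Each runs 5′ to 3′ over 300 bases, from 250 before to 50 after a start site in RefSeq (GRCm38.p6), with the E-box in capitals.
Ciart, chr3:95882179-95882478, minus strand: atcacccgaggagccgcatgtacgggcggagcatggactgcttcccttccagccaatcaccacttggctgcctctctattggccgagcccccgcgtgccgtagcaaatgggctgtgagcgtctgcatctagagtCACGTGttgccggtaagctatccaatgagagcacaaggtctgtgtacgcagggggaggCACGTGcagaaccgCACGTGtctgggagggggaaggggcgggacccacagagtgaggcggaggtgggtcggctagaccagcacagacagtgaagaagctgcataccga
Per1, chr11:69098699-69098998, plus strand: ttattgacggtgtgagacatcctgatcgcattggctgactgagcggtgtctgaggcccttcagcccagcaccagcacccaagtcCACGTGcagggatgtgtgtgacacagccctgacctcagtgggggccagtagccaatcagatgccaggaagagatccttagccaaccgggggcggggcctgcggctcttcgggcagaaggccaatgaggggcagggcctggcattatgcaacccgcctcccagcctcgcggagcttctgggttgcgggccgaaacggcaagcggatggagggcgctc
Nr1d2, chr14:18239057-18239356, minus strand: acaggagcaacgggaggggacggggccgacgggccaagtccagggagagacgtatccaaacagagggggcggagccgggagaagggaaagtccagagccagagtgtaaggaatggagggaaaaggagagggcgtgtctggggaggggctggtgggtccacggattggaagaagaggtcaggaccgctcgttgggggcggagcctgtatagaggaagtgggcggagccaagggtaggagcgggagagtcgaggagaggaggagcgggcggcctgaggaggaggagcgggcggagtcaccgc

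CACGTG reads the same on both strands. Ciart held 3 copies in this window, Per1 held 1 and Nr1d2 held 0. RefSeq lists a second start site of Per1, at chr11:69099902-69100201, whose window held 0 and is not shown. Of the genes with a lower UVR difference under organic than under TiO2 sunscreen, 8 had a promoter in the RefSeq table and 3 of them, Ciart, Per1 and Rnf145, held the letters at 1 or more of their start sites. Of the 17 genes with a higher difference and a promoter, 1 held them (Tars). Of 27025 genes with a promoter, 8.09% did. These are matches of letters and not measured binding.

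Ddc and Insig2 had the smallest adjusted p among the genes with a higher value under organic sunscreen. Ddc, which makes dopamine and serotonin from their amino acid precursors, had UVR differences of 0.44 under organic and -1.59 under TiO2 sunscreen. Its log2 level was 7.37, 7.70 and 8.30 in Organic + UVR and 6.05, 7.56 and 7.89 in Organic-UVR, whose lowest array was replicate 1. The gap was 2.02 ± 0.33 (SE, limma adjusted p = 0.0019), with TiO2 + UVR at 6.54, 7.26 and 8.19 and TiO2-UVR at 8.32, 8.77 and 9.62. Hal differed by 0.32 under organic and -0.85 under TiO2 sunscreen (gap 1.18, adjusted p = 0.0064), Bhmt by 0.46 and -0.58 (gap 1.04, adjusted p = 0.011) and Amdhd1 by 0.44 and -0.54 (gap 0.98, adjusted p = 0.062). Acmsd, which steers tryptophan away from NAD, differed by 0.11 and -1.09 (gap 1.20, adjusted p = 0.047). Tars, which charges tRNA with threonine, differed by 0.31 and -1.07 (gap 1.38, adjusted p = 0.017). Without Organic-UVR replicate 1, the lowest array for both, the organic difference was 0.11 for Tars and -0.07 for Acmsd. In the amino acid list 3 of 17 genes (Ddc, Hal and Bhmt) were called, all higher, beside 0.204% of all transcripts, and the median gap was 0.21, beside -0.01 over all transcripts.

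Insig2, which holds the sterol sensor Scap in the endoplasmic reticulum, had UVR differences of 0.26 under organic and -1.22 under TiO2 sunscreen. It was at 9.18, 9.38 and 10.05 in Organic + UVR and 8.51, 9.28 and 9.86 in Organic-UVR, and at 8.71, 9.24 and 9.68 in TiO2 + UVR and 10.07, 10.45 and 10.82 in TiO2-UVR. The gap was 1.48 ± 0.25 (SE, limma adjusted p = 0.0019). Eci3 differed by 0.58 under organic and -1.19 under TiO2 sunscreen, Coq8a, a kinase-like protein of coenzyme Q synthesis, by 0.34 and -0.84, Slc30a10, a manganese exporter, by 0.07 and -1.49, and Avpr1a, the hepatic vasopressin receptor, by 0.11 and -1.15. Tubb2a, a beta tubulin, had the largest gap on this side (2.25, adjusted p = 0.035), with 0.37 under organic and -1.88 under TiO2 sunscreen. Asap2 (-0.03 and -1.43), Nckap5 (-0.03 and -1.63), Lgalsl (0.11 and -1.35), Rfx4 (0.34 and -1.09) and Sumo3 (0.09 and -0.68) completed this side. A second, dimmer probeset of Nckap5 had a gap of 0.27 and was not called. Without Organic-UVR replicate 1 the organic difference was 0.15 for Slc30a10, -0.02 for Sumo3, 0.01 for Asap2, 0.09 for Nckap5 and 0.22 for Npas2.

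Slc5a3 had UVR differences of -0.47 under organic and 0.25 under TiO2 sunscreen (gap -0.72 ± 0.17, SE, limma adjusted p = 0.059). Atad2, a chromatin ATPase, differed by -0.38 and 0.41 (gap -0.79, adjusted p = 0.067) and the small nucleolar RNA Snora31 by -0.38 and 0.72 (gap -1.10, adjusted p = 0.070). Mknk2, a kinase of the translation factor eIF4E, differed by -0.13 and 0.69, Rnf145, a ubiquitin ligase of sterol control, by -0.17 and 0.90, Ppp1r3g, a glycogen-targeting phosphatase subunit, by -0.20 and 0.92, and Gdap10 by -0.46 and 1.49. Without Organic-UVR replicate 1 the organic difference was -0.23 for Mknk2, -0.31 for Rnf145 and -0.76 for Gdap10. In Gdap10 the Organic-UVR arrays spanned 4.86 to 7.87, against 5.57 to 6.38 in Organic + UVR. Of all 29 genes, 7 had an unadjusted p under 0.05 for the UVR difference under organic sunscreen alone (3.39% of all transcripts). For the UVR difference under TiO2 sunscreen alone 25 were called, beside 64 of all 9815 transcripts. Choosing genes by the gap between the 2 differences favours both counts.

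**Figure D5:**
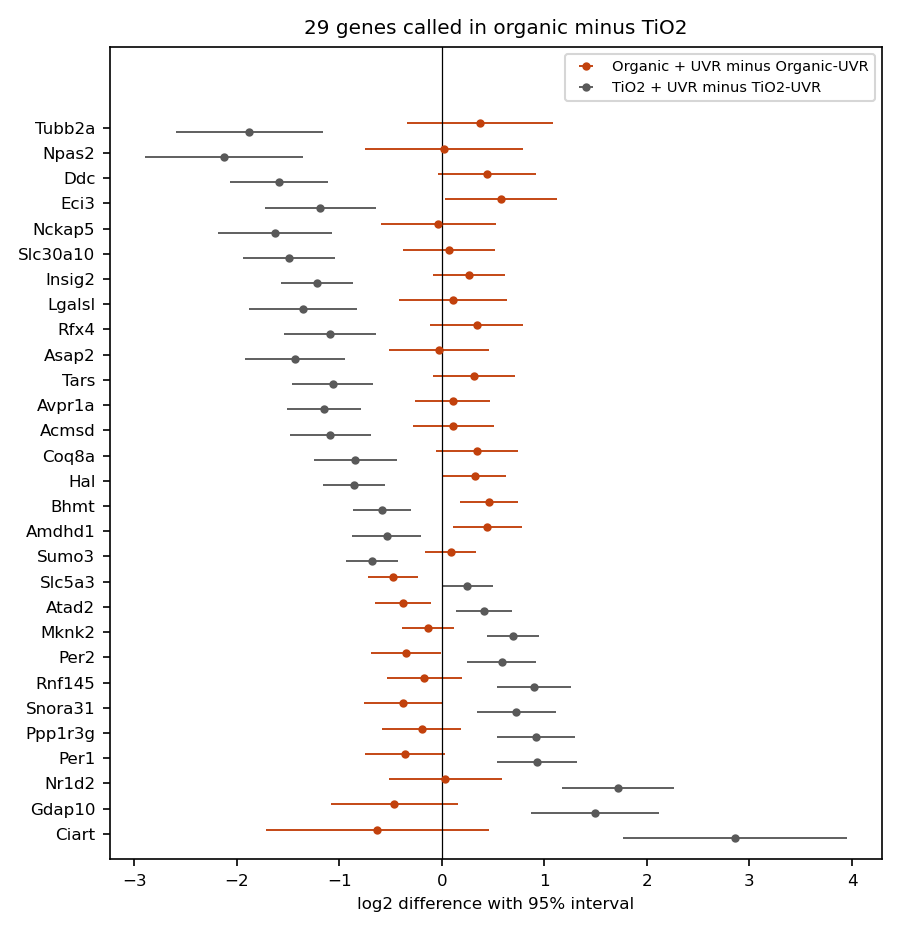
UVR difference (log2, with 95% interval) under organic sunscreen (orange, Organic + UVR minus Organic-UVR) and under TiO2 sunscreen (grey, TiO2 + UVR minus TiO2-UVR) for the 29 named genes whose UVR difference was called as different between the products. The organic values lie between -0.63 and 0.58, and the TiO2 values between -2.12 and 2.86.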

How the data were processed

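Liver RNA was measured on Affymetrix arrays, and the authors deposited log2 values normalized by RMA, which were used as given. The study describes chip batches with 1 chip per group and a removal of batch effects. Whether the values had this step, and whether the labels' replicate number is the batch, is not given in the sources used here. Of 16383 probesets, 6568 controls were left out and 9815 transcripts tested, mostly from chromosomes 1 and 10 to 16. Other chromosomes were scarcely covered, with 5 transcripts of 1 symbol on chromosome 2 and 10 on chromosome 8. The results therefore cover only part of the genome. A single gene symbol was given for 7450, of which 7421 matched RefSeq (GRCm38.p6). In gene lists the brightest transcript stood for its gene.

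limma 3.58.1 (R 4.3.3) fitted group and replicate number (as a block) to 47 arrays, with 34 residual degrees of freedom. The Benjamini-Hochberg adjustment ran over all 9815 transcripts, with calls under 0.1. The p-values rest on the spread between mice within groups, pooled over all 8 groups after the replicate term and moderated across transcripts by limma. They do not rest on the spread of the organic groups alone. Scripts were tested on simulated data. The comparison and the gene lists were chosen with earlier results of these data known. Transcripts with 1 symbol were named by rule. The rule took the 10 smallest p in each direction, those whose groups did not overlap, the 3 smallest p of each list (printed where a member had an unadjusted p under 0.05) and, for each difference between products, the 3 smallest called p in each direction or, with none called, the 2 smallest p. All other genes called between organic and TiO2 sunscreen, and markers and lists outside this rule, were named after their values were seen.

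The fit was repeated without the block, on the compared groups alone, with array weights, quantile normalization or the array slope as a covariate, without dim transcripts (mean under the 90th percentile of olfactory receptors), at a threshold of 0.05, with 1 transcript per gene and without each array. The count of non-overlapping transcripts without Organic-UVR replicate 1, and the fit without both that array and the block, were chosen after seeing the data.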

Additional observations from a re-analysis of the deposited data

Results flagged for a closer look

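Of 168 groups of arrays tested, 23 had an array that stood far from the other 5 by Dixon's test. The usual rate of about 1 in 20 is for independent groups. These genes share the same arrays and were mostly chosen on them, so 23 is not to be read against that rate. In Organic + UVR, replicate 4 was high for Ostn (4.15) and Caps2 (4.43) and low for Ddit3 (4.74), replicate 5 was high for Snora31 (5.77), replicate 2 was low for Sumo3 (7.57) and replicate 1 was low for Cdk2 (5.01), all as log2 levels. Organic-UVR replicate 1 had the low array slope (0.77) and accounted for most of the others. It was low for Serpina1c (9.91), Abcd2 (8.32), Idi1 (8.03), Hsd17b7 (7.69), Tars (7.16), Perp (6.96), Acmsd (6.22), Ddc (6.05) and Tfrc (5.87). It was high for Olfr1364 (6.11), Ddit3 (6.00), Tubb2b (5.99), Slitrk5 (5.93) and Spef2 (3.92). Elsewhere in Organic-UVR, replicate 4 was high for Slc11a2 (6.43) and replicate 2 for Hsd17b3 (5.26).

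The UVR difference under organic sunscreen differed from that under TiO2 sunscreen in 29 named genes, by limma's test of the difference itself. The organic difference minus the TiO2 difference was positive on the log2 scale for Ddc (2.02), Insig2 (1.48), Hal (1.18), Bhmt (1.04), Slc30a10 (1.56), Tars (1.38), Avpr1a (1.26), Eci3 (1.76), Rfx4 (1.43), Tubb2a (2.25), Sumo3 (0.77), Acmsd (1.20), Coq8a (1.19), Amdhd1 (0.98), Asap2 (1.40), Nckap5 (1.59), Npas2 (2.15), Lgalsl (1.46). It was negative for Per1 (-1.29), Mknk2 (-0.83), Ciart (-3.49), Gdap10 (-1.96), Nr1d2 (-1.68), Rnf145 (-1.07), Slc5a3 (-0.72), Ppp1r3g (-1.12), Atad2 (-0.79), Snora31 (-1.10), Per2 (-0.93).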

How the results depend on the processing

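The comparison of Organic + UVR with Organic-UVR gave 0 calls under every alternative except array weights, with 5 calls (2 higher, 3 lower), and the comparison with ZnO gave 0 under all that were run. The comparison with the UVR difference without sunscreen gave 1 call with the array slope as a covariate and 0 otherwise. Against TiO2 the 32 calls (20 higher, 12 lower) became 210 with array weights (70 higher, 140 lower), 121 with the slope as a covariate (64 higher, 57 lower), 50 with quantile normalization (34 higher, 16 lower) and 20 at a threshold of 0.05 (14 higher, 6 lower). Leaving out 1 array gave 13 to 65 calls, with 16 without TiO2 + UVR replicate 6, 17 without TiO2-UVR replicate 3, 20 without TiO2-UVR replicate 4, Organic-UVR replicate 6 or Organic + UVR replicate 3, and 21 when replicate 3 of Organic-UVR was dropped. The 3 transcripts without overlap became 37 without Organic-UVR replicate 1. The slope difference ran from -0.0347 to 0.022 over the arrays left out, being under 0 without Organic-UVR replicate 1 or Organic + UVR replicate 1 or 5. With array weights Acot4 was at -0.19, Apoh at -0.0083, Cps1 at -0.029 and Spef2 at 0.49 (now called), and with quantile normalization Cps1 was at -0.016. With 1 array left out Cps1 ran from -0.014 to 0.064 and Sox9 from -0.021 to 0.14. The causes were not tested. Without the replicate block 13 transcripts were called against TiO2 (8 higher, 5 lower), all among the 32, and the other comparisons had 0 calls. When Organic-UVR replicate 1 was also left out, 41 were called against TiO2, the only comparison fitted in that way. The numbers were not shown to pair the samples. Deviations of Organic + UVR and Organic-UVR arrays with the same number correlated between -0.51 (replicate 1) and 0.64 (replicate 5), and 2 of 6 Organic + UVR arrays correlated best with their own number. The number of arrays limits the precision. The half-width of 0.29 is a median over unadjusted 95% intervals and not a limit of detection. Larger differences, such as -0.53 for LOC102635990, were also left uncalled after adjustment.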
